A study of Mus musculus with 9 samples.

Results

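Lung RNA of asthmatic mice given a Chinese herbal mixture, Bu-Shen-Yi-Qi formula (BSYQF), was compared with lung RNA of asthmatic mice given saline. These groups hold 6 of the 9 libraries of the series, 3 for each group, chosen by the group named in their labels, and all 14739 genes that passed a filter on low counts were compared. The asthma group had a chronic asthma model and received saline by mouth from day 14. The BSYQF group had the same model and received the formula by mouth from day 14 at 20 g of raw herbs per kg body weight, for 6 weeks per its label. Normal mice given saline by mouth (control, 3 libraries) share the strain, BALB/c, and the route of dosing, and their values stand beside those of the other groups as the level without the model. No age, sex, allergen or allele is given in the labels, and the labels do not state that the libraries are from separate mice; the p-values then reflect only how far these libraries spread.

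Chronic allergic airway disease in mice fills the airway lining with mucus-making goblet cells, draws in eosinophils, lymphocytes and alternatively activated macrophages, and thickens the wall with matrix laid down by fibroblasts. Secretory (club) cells line the conducting airways and release host-defence proteins, while basal cells, marked by the keratins Krt5 and Krt15 and the factor Trp63, are the stem cells of the larger airways. A piece of whole lung also carries tissue next to the airways, including pulmonary veins, whose wall in mice contains heart muscle cells, and fat around the hilum. In bulk RNA of this kind, fewer cells of a type and less RNA per cell cannot be told apart.

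Counts assigned to genes totalled 16286385 to 22819199 over the 6 libraries, and 15476 to 16486 genes had at least 1 count. Levels are given in CPM, the count scaled to a library total of 1000000, after TMM scaling of the totals. Markers of lung tissue were abundant in all 6 libraries: the surfactant gene Sftpc of alveolar type 2 cells reached 13500 to 25300 CPM, Ager of alveolar type 1 cells 1490 to 2230 CPM and the club cell gene Scgb1a1 28300 to 47400 CPM. The share of counts from the mitochondrial genome was 5.05%, 10.3% and 3.77% in asthma replicates 1, 2 and 3 and 6.53%, 3.61% and 2.64% in BSYQF replicates 1, 2 and 3, against 2.19% to 3.46% in controls. Asthma replicate 2 stood highest on this measure, and BSYQF replicate 1 was the highest of its own group.

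The libraries did not divide cleanly by treatment. Distance between libraries was taken as the root mean square difference in log2 CPM over the tested genes. Asthma replicate 3 and BSYQF replicate 2 were 0.502 apart, as close as control libraries were to each other (0.458 to 0.504). That pair was closer than any pair within the asthma group (0.616 to 0.799) or within the BSYQF group (0.532 to 0.771). BSYQF replicate 1 was 0.677 from asthma replicate 1, its nearest library, and 0.684 and 0.771 from the other BSYQF libraries. The median distance was 0.708 over the 9 pairs of an asthma and a BSYQF library, 0.665 within asthma and 0.684 within BSYQF. Which library of a group is left out therefore weighs on many of the values below.

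**Figure D1:**
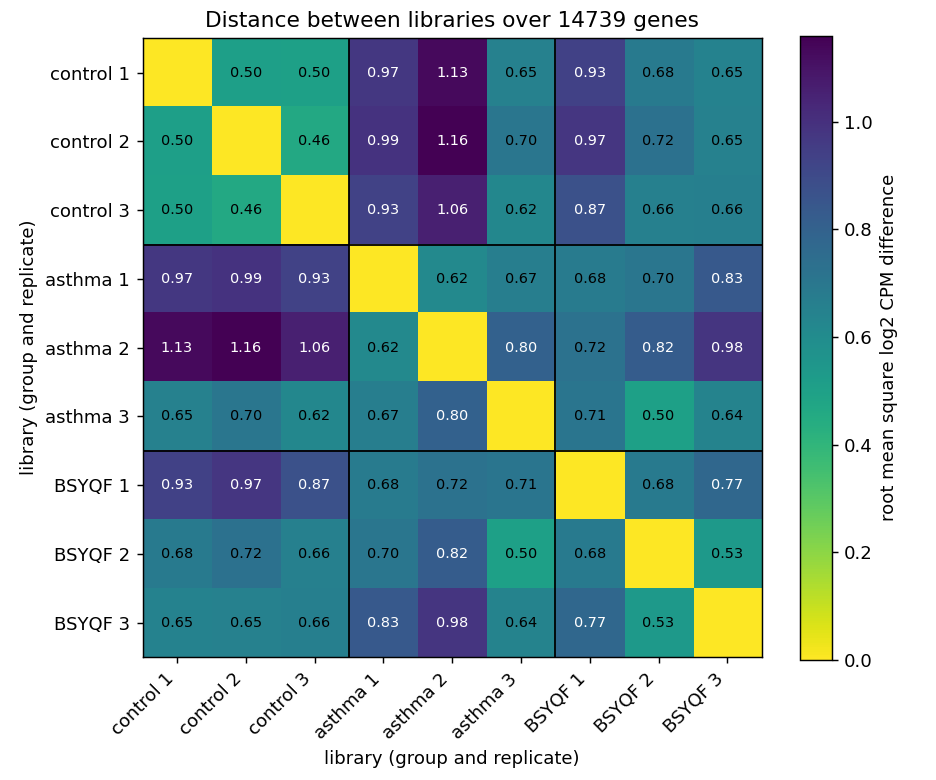
Root mean square difference in log2 CPM for each pair of the 9 libraries; darker cells are farther apart, and lines separate the groups. Asthma 3 and BSYQF 2 are 0.50 apart, while asthma 2 and BSYQF 3 are 0.98 apart.

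Of 14739 genes tested with edgeR's quasi-likelihood test, 1 rose with BSYQF at a Benjamini-Hochberg adjusted p under 0.05 (0.00678%) and 0 fell. At an unadjusted p under 0.05 there were 1171 genes (7.94%), of which 559 were higher (3.79%) and 612 lower (4.15%). All 3 BSYQF libraries lay above all 3 asthma libraries for 735 genes (4.99%) and below them for 702 (4.76%), together 9.75% of the genes tested. The fitted log2 differences were centred on 0, with a middle range (25th to 75th percentile) of -0.21 to 0.21 and a median SE of 0.22. Differences of at least 2-fold were more often upward, with 487 genes higher and 176 lower, and 353 of these 663 had an unadjusted p under 0.05. For scale, the same model called 1869 genes (12.7%) between asthma and control and 246 (1.67%) between BSYQF and control, comparisons that share libraries with this one.

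The number of calls turned on single libraries and on the tool. Without asthma replicate 3, the library nearest to the BSYQF group, 114 of 14941 genes passed (0.763%), 64 higher (0.428%) and 50 lower (0.335%). Without BSYQF replicate 1 there were 0 calls, although 2260 genes had an unadjusted p under 0.05. Leaving out BSYQF replicate 3 also gave 0 calls and lowered the count at an unadjusted p under 0.05 to 547. DESeq2's Wald test on the same 9 libraries called 122 genes (0.692%), 98 higher (0.556%) and 24 lower (0.136%). On the 6 libraries alone, a fit added after the data were seen, DESeq2 called 83 (0.481%), 72 higher (0.417%) and 11 lower (0.0637%). Limma voom called 0.

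**Figure D2:**
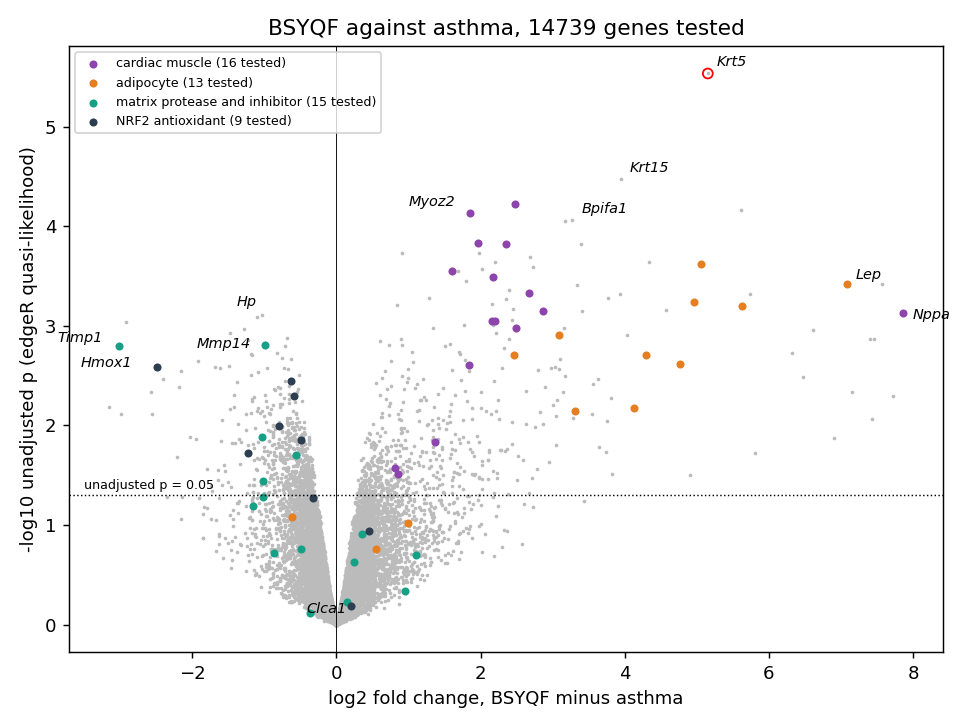
Each point is 1 of the 14739 genes tested, with the log2 fold change (BSYQF minus asthma) on the horizontal axis and the -log10 unadjusted p on the vertical axis; colours mark 4 gene lists and the ring marks Krt5, the gene called. Cardiac muscle and adipocyte genes lie to the upper right, and matrix protease and antioxidant genes mostly to the left.

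The gene that rose was Krt5, the keratin of basal cells (chr15:101707070-101712898, minus strand, mm10). It was at 0.226, 0.134 and 0.0448 CPM in asthma replicates 1, 2 and 3 and at 5.09, 2.73 and 6.77 CPM in the BSYQF replicates, beside 2.39 ± 0.359 CPM in controls (SD, n = 3). The BSYQF libraries were all above the asthma libraries; replicate 2 lay within the control range and replicates 1 and 3 above it. The log2 fold change was 5.15 ± 0.60 (SE; edgeR adjusted p = 0.0431). It rests on few reads in the asthma group, with 4, 2 and 1 counts against 84, 47 and 130, a ratio of 38.6 with a 95% exact counting interval of 18.5 to 97.0 that covers counting error only. Over 17 alternative fits the log2 fold change stayed between 4.68 and 5.78, with adjusted p-values from 1.54e-09 to 0.405, and 8 of the 17 called it. The fits that lost the call included those without any 1 control library (adjusted p = 0.124 to 0.128), without asthma replicate 1 or 2 (0.186 and 0.188) and without BSYQF replicate 1 or 3 (0.109 and 0.0634).

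Upstream DNA of Krt5 is shown because this is the gene called. The 250 bases before its RefSeq start (GRCm38.p6, chr15:101712906-101713155, minus strand, printed 5′ to 3′) hold 1 match to the p53 family half-site, a motif that the basal cell factor p63 can also bind, at position -95 from the start, in capitals.
Krt5: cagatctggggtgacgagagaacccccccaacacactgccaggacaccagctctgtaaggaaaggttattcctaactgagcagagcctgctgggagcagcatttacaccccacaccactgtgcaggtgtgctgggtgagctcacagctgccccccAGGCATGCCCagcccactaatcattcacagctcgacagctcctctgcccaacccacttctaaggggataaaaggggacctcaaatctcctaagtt
Motifs were searched on both strands and were chosen after the sequences had been seen. Of 32851 RefSeq promoter windows of this length, 7.13% held a p53 family half-site. The match is a description of letters, not of a bound site.

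Other basal markers differed less evenly. Of 14 basal genes tested, Krt5 included, 4 were higher at an unadjusted p under 0.05 (all genes 3.79%) and 3 lay wholly above asthma (all genes 4.99%). The median log2 difference was 0.63, and 0.34 without BSYQF replicate 3, beside 0.00 over all genes. Krt15, the other basal keratin, was at 0.113, 0.403 and 0.762 CPM in asthma and 5.69, 3.95 and 10.9 CPM with BSYQF (control 4.93 ± 1.25, SD, n = 3). Its groups did not overlap, and the log2 difference of 3.94 ± 0.59 had an edgeR adjusted p of 0.186. Krt17, a keratin of activated basal cells, had 6 counts over the asthma libraries and 52 over the BSYQF libraries (log2 difference 3.05 ± 0.95, edgeR adjusted p = 0.534). Trp63, which encodes p63, was at 2.66, 2.22 and 1.03 CPM in asthma and 2.97, 0.93 and 2.03 CPM with BSYQF, a difference of 0.01 ± 0.55 on the log2 scale whose sign changed in 4 of the alternative fits. Of 16 genes listed for squamous lining, as in oesophagus, 5 passed the filter on low counts. Its oesophageal keratins Krt13 and Krt4 had at most 6 and 17 counts and Sprr3 had 0 counts in all 9 libraries, while the envelope gene Sprr2a3 reached 1068 counts. The 5 tested genes summed to 11.3 to 59.6 CPM in asthma and 11.4 to 73.9 CPM with BSYQF, with a median difference of -0.02. Dsc3, a desmosomal cadherin of stratified and basal epithelium, had 4 counts over the asthma libraries and 28, 43 and 172 in the BSYQF libraries.

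Secretory airway genes included an abundant gene with a large upward difference. Bpifa1 encodes SPLUNC1, an antimicrobial and surface-active protein of upper airway secretory cells. It was at 17.5, 30.8 and 83.9 CPM in the asthma libraries and at 270, 524 and 487 CPM in the BSYQF libraries. No BSYQF library reached down to the asthma range, and those of replicates 2 and 3 lay within the control range of 434 to 621 CPM. The log2 difference was 3.27 ± 0.52 (edgeR adjusted p = 0.186), and 2.91 to 4.15 over the 17 alternative fits, of which 4 called it. Clca3b, a secreted member of the chloride channel accessory family, was at 1.08, 0.605 and 0.628 CPM in asthma and 5.69, 2.90 and 15.9 CPM with BSYQF (3.40 ± 0.60, edgeR adjusted p = 0.209); control libraries had 1.16 ± 0.187 CPM (SD, n = 3), and against control it rose with BSYQF (2.81 ± 0.58, edgeR adjusted p = 0.0381). Slc5a8, a sodium-coupled monocarboxylate carrier of epithelia, had 0, 0 and 2 counts in asthma and 20, 35 and 57 with BSYQF, a ratio of 58.0 with a counting interval of 15.7 to 485. Reg3g, a bactericidal lectin, was at 140, 179 and 46.7 CPM against 225, 184 and 437 CPM (1.21 ± 0.51, edgeR adjusted p = 0.619). Scgb1a1, the main club cell product, overlapped between the groups (-0.27 ± 0.32). Over the 15 secretory genes tested, 4 were higher and 1 was lower at an unadjusted p under 0.05 (all genes 3.79% and 4.15%). The lower gene was Hp, haptoglobin, more abundant than Bpifa1 and wholly below asthma (-1.03 ± 0.22, edgeR adjusted p = 0.267). Its levels are given further below. The median of 0.18 over the secretory genes became 0.01, 0.50 and 0.60 without asthma replicates 1, 2 and 3. It became 0.41, 0.31 and 0.31 without BSYQF replicates 1, 2 and 3.

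The promoter of Bpifa1 is shown beside that of Krt5 as the other airway lining gene with a large difference. Its 250 bases before the start (GRCm38.p6, chr2:154142630-154142879, plus strand) hold a TATA-like TATAAA at position -29, in capitals, a match found in 12.4% of promoter windows on either strand.
Bpifa1: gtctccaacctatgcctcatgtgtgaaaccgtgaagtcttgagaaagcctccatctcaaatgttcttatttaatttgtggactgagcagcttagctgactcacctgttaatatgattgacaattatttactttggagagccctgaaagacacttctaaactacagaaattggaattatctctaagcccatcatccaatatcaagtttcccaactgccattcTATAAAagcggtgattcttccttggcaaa

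Of the 52 gene lists compared, that of heart muscle had the largest share of tested members higher at an unadjusted p under 0.05. All 16 cardiac muscle genes listed were tested and all 16 were higher at an unadjusted p under 0.05, where 3.79% of all genes were; 14 lay wholly above asthma, where 4.99% of all genes did, and 0 were called. The median log2 difference was 2.17, and 1.89 to 2.44 with any 1 of the libraries left out. Mean log2 levels of the list, relative to the control mean, were -2.44, -2.26 and -1.59 in the asthma libraries and -0.39, 0.03 and 0.83 in the BSYQF libraries. The control libraries were at -0.24, -0.40 and 0.64, so the BSYQF and control ranges overlapped and the asthma libraries lay below both. Summed over the list, asthma libraries held 176 to 346 CPM, BSYQF libraries 581 to 1620 CPM and control libraries 607 to 1240 CPM.

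Among sarcomere genes, Myl4, the atrial essential light chain, was at 13.6, 19.0 and 28.4 CPM in asthma and 79.7, 81.0 and 153 CPM with BSYQF (2.36 ± 0.41, edgeR adjusted p = 0.209). Myoz2, a calcineurin-binding protein of the Z-disc, was at 3.11, 4.10 and 4.44 CPM against 12.0, 15.7 and 14.5 CPM, with little spread on either side (1.86 ± 0.30, edgeR adjusted p = 0.186). Mybphl, an atrial myosin-binding protein, was at 2.49, 0.874 and 2.11 CPM against 8.36, 9.93 and 12.6 CPM (2.48 ± 0.40). Myh6, the fast cardiac myosin heavy chain, was at 19.7, 29.2 and 59.2 CPM against 93.9, 205 and 311 CPM (2.50 ± 0.54). Titin (Ttn), cardiac troponin I (Tnni3) and the atrial light chain Myl7 differed by 1.96 ± 0.35, 2.18 ± 0.42 and 2.67 ± 0.52 on the log2 scale. Sln, the sarcolipin that restrains the calcium pump of atrial muscle, was at 3.11, 1.82 and 7.80 CPM against 17.7, 28.8 and 48.6 CPM. For each of these genes the groups did not overlap, and the smallest adjusted p among them was 0.186.

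The hormone genes of the heart behaved less evenly. Nppa, which encodes atrial natriuretic peptide, was at 0.623, 1.08 and 0.448 CPM in asthma and 23.6, 18.5 and 442 CPM with BSYQF (7.86 ± 1.57, edgeR adjusted p = 0.263). BSYQF replicate 3 held 8501 of its counts, and Nppb, the B-type peptide, likewise had 223 counts there against 11 in each of the other BSYQF libraries. Controls had 43.3 ± 24.1 CPM of Nppa (SD, n = 3). The 9 skeletal muscle genes tested had a median of 0.47, which was 0.22 without BSYQF replicate 2. Of these 9, 3 were higher at an unadjusted p under 0.05 (all genes 3.79%): Ckm, Mb and Acta1, which heart muscle also expresses. The skeletal myosin Myh4 had at most 1 count in any library. Without asthma replicate 3 the edgeR fit called 8 of the 16 cardiac genes (all genes 0.763%). DESeq2 on all 9 libraries called 12 of the 16 (all genes 0.692%). The edgeR fit without BSYQF replicate 1 called 0 of them and 0 of all genes, although all 16 remained at an unadjusted p under 0.05 there.

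The Myoz2 promoter is shown as that of the cardiac gene with the least spread. Its 250 bases before the start (GRCm38.p6, chr3:123034988-123035237, minus strand) hold a match to CTANNNNTAG at position -33, in capitals. The pattern is like the core bound by MEF2 muscle factors, with its middle bases left free in the search. The matched letters also contain TATATATA, which the search for TATAAA did not count.
Myoz2: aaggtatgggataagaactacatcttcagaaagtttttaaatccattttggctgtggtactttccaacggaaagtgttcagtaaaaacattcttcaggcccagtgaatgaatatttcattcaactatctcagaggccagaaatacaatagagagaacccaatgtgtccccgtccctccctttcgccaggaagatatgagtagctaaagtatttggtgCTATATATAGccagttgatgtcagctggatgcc
Of the 16 cardiac genes, 15 had a RefSeq promoter window, with 18 windows in total. This motif was held on either strand by 3 of the 18 (16.7%), beside 3.20% of all windows.

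Fat cell genes differed more, and less evenly. Of 14 adipocyte genes listed, 13 were tested, 10 were higher at an unadjusted p under 0.05 (all genes 3.79%), 9 lay wholly above asthma (all genes 4.99%) and 0 were called. The median log2 difference was 4.13 (4.11 with the gene at 0 counts set to its bound), and 5.62 without asthma replicate 3. Cfd, the fat-cell protease adipsin, was at 1.92, 1.61 and 5.96 CPM in asthma and 36.7, 72.3 and 196 CPM with BSYQF (4.96 ± 0.95, edgeR adjusted p = 0.259). Adipoq, the hormone adiponectin, was at 0.170, 0 and 0.717 CPM against 5.45, 11.0 and 33.5 CPM (5.63 ± 1.12). Lep, the hormone leptin, had 0 counts in the asthma libraries and 14, 12 and 24 with BSYQF, at least 17.3-fold higher when 3 counts over the asthma group are taken as the floor. Car3, a carbonic anhydrase of fat and muscle, was at 3.74, 1.88 and 7.84 CPM against 64.9, 106 and 288 CPM (5.06 ± 0.87, edgeR adjusted p = 0.209). Within each group the order was shared: asthma replicate 3 was the highest asthma library and BSYQF replicate 3 the highest BSYQF library for Cfd, Adipoq and Car3. The controls spread as widely, with Cfd at 210, 67.0 and 34.5 CPM. Summed over all 13 genes the groups overlapped, at 430 to 572 CPM in asthma and 472 to 1150 CPM with BSYQF.

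Mesothelium, the sheet covering the lung, gave a smaller difference of the same sign. Of 7 genes tested, 2 were higher at an unadjusted p under 0.05 (all genes 3.79%) and 3 lay wholly above asthma (all genes 4.99%). Both counts include Muc16 (1.70 ± 0.68, edgeR adjusted p = 0.609), which is also on the secretory list and among its 4 higher genes. The median of the mesothelial list was 0.98, and 0.54 without asthma replicate 2. Upk1b, a tetraspanin of mesothelial cells, was at 7.24, 4.24 and 7.62 CPM against 10.8, 16.3 and 16.9 CPM (1.20 ± 0.32, edgeR adjusted p = 0.416). Msln, mesothelin, was at 61.2, 23.3 and 70.2 CPM against at least 73.1 CPM in each BSYQF library (0.76 ± 0.38, edgeR adjusted p = 0.627). Asthma replicate 2 was the lowest library for both. The mean level of the heart muscle and fat lists was lower in each asthma library than in every BSYQF and control library, as was Krt5. That of the mesothelial list overlapped, with asthma libraries at -0.94, -2.63 and -0.79 and BSYQF replicate 1 at -0.83 log2 units from control. The part of these tissues in the differences of airway genes was not tested. Lists for other neighbouring tissues overlapped between the groups in summed level. The 4 tested genes of the thyroid and parathyroid list summed to 5.72 to 11.2 CPM in asthma and 4.84 to 10.5 CPM with BSYQF, and Pth of parathyroid had 0 counts in every library. The 3 tested thymocyte genes, which mature T cells also express, summed to 17.3 to 20.7 CPM and 20.2 to 38.3 CPM, while Ptcra had 0 counts and Rag1 at most 2. The 3 tested cartilage genes overlapped likewise, and most of their level came from Chad, at 28.2 to 93.7 CPM in the 6 libraries.

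**Figure D3:**
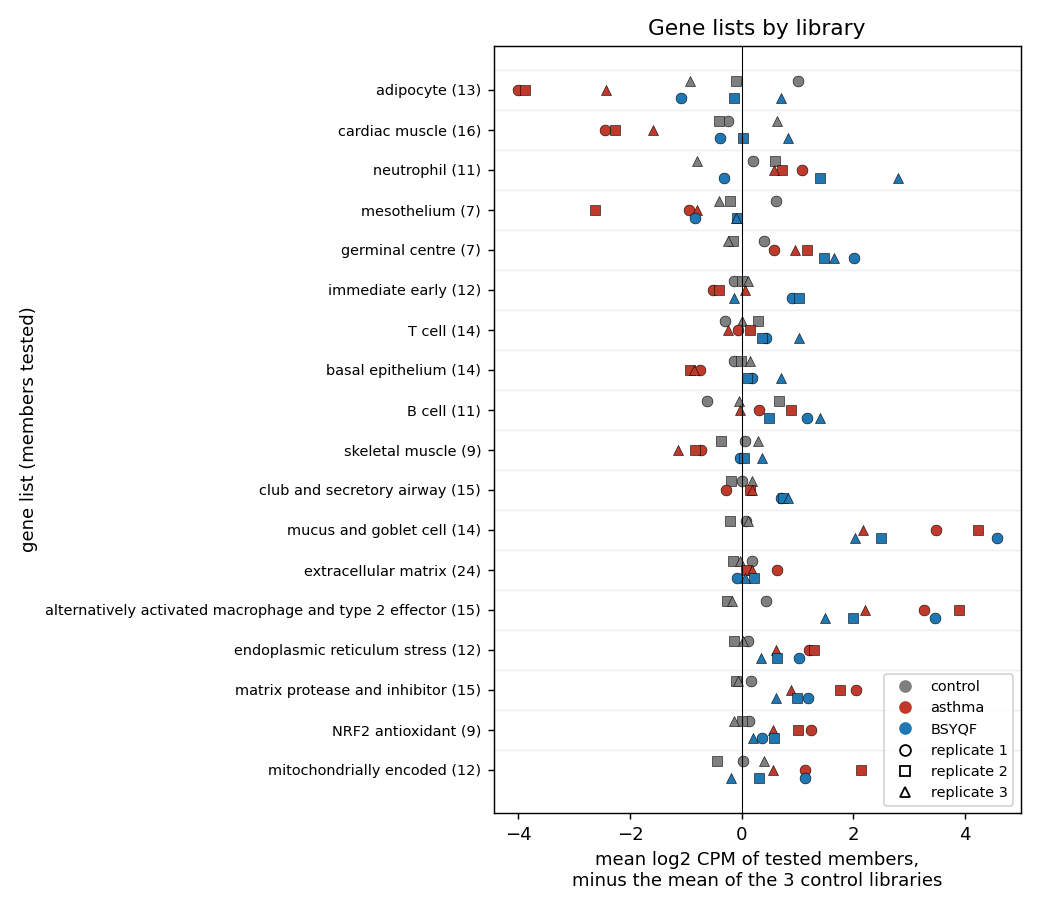
Each row is a gene list and each symbol 1 library: its mean log2 CPM over the tested members minus the control mean, with colour for the group and shape for the replicate. Asthma libraries sit at -2.44 to -1.59 for cardiac muscle, below all BSYQF libraries, while in the mucus row BSYQF 1 is highest at 4.57 and BSYQF 3 lowest at 2.03 of the 6.

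Matrix and protease genes lay on the other side, lower with BSYQF. Of 15 matrix protease and inhibitor genes tested, 5 were lower and 0 higher at an unadjusted p under 0.05 (background 4.15% lower), 4 lay wholly below asthma (background 4.76%) and the median was -0.56, or -0.90 without asthma replicate 3. Timp1, the inhibitor of metalloproteinases that is induced in injured lung, was at 459, 396 and 60.7 CPM in asthma and 46.9, 49.4 and 16.4 CPM with BSYQF (control 4.04 ± 1.36, SD, n = 3). Every BSYQF library was below every asthma library and above every control library. The log2 difference was -3.02 ± 0.69 (edgeR adjusted p = 0.321), and 2 of 17 alternative fits called it. Mmp14, a membrane-bound collagenase, was at 170, 190 and 90.4 CPM against 83.7, 77.6 and 65.2 CPM (-0.99 ± 0.24, edgeR adjusted p = 0.321). Plau, the urokinase-type plasminogen activator, and Mmp3, stromelysin, differed by -0.56 ± 0.21 and -1.02 ± 0.43.

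Of 24 matrix genes tested, 8 were lower and 2 higher at an unadjusted p under 0.05 (all genes 4.15% and 3.79%), and 9 had a positive difference. The median was -0.27, and -0.06, -0.18 and -0.41 without asthma replicate 1, BSYQF replicate 1 and BSYQF replicate 2. Tnc, tenascin-C of remodelling tissue, was at 159, 89.7 and 24.8 CPM in asthma and 22.3, 24.2 and 14.7 CPM with BSYQF, beside 13.3 ± 3.58 CPM in controls (-2.16 ± 0.54, edgeR adjusted p = 0.380). Asthma replicate 3 lay next to BSYQF replicate 2, and asthma replicates 1 and 2 lay far above all BSYQF libraries. Spp1, the secreted matrix protein osteopontin, was at 1300, 903 and 159 CPM against 319, 169 and 91.3 CPM, so its groups overlapped (-2.03 ± 0.66). Versican (Vcan) and thrombospondin 1 (Thbs1) differed by -1.18 ± 0.34 and -1.0 ± 0.36. The collagen cross-linkers Lox and Loxl2 differed by -0.71 ± 0.29 and -0.58 ± 0.24, and the fibrillar collagens Col3a1 and Col5a1 by -0.55 ± 0.24 and -0.44 ± 0.19. Col1a1, the main fibrillar collagen, overlapped (390, 237 and 294 CPM against 167, 333 and 228 CPM), as did the smooth muscle actin Acta2 (-0.31 ± 0.25) and the growth factor gene Tgfb1 (-0.12 ± 0.24). The higher pair were Dcn, decorin (1.38 ± 0.55), and Fbln2, fibulin-2 (0.95 ± 0.43), both products of adventitial fibroblasts. Tgfbi, a matrix protein induced by TGF-beta, was at 405, 383 and 184 CPM against 108, 183 and 110 CPM (-1.28 ± 0.29, edgeR adjusted p = 0.293). Inhba, which encodes the activin A subunit, was at 37.5, 52.9 and 19.9 CPM against 16.6, 28.6 and 6.35 CPM (-1.10 ± 0.50).

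Antioxidant genes under the factor NRF2 were also lower in part, with 6 of 9 lower at an unadjusted p under 0.05 (all genes 4.15%), 3 wholly below asthma (all genes 4.76%) and a median of -0.58. Hmox1, heme oxygenase, was at 818, 551 and 122 CPM in asthma and 90.1, 128 and 47.4 CPM with BSYQF (-2.49 ± 0.61, edgeR adjusted p = 0.380). Gclc and Gclm, the subunits of the first enzyme of glutathione synthesis, differed by -0.64 ± 0.17 and -0.58 ± 0.17 without overlap. Srxn1, Gpx2 and the cystine carrier Slc7a11 differed by -0.79 ± 0.26, -0.49 ± 0.17 and -1.23 ± 0.45. Sod2, the mitochondrial superoxide dismutase, was at 211, 239 and 166 CPM against 127, 142 and 116 CPM (-0.68 ± 0.16, edgeR adjusted p = 0.315), beside 118 ± 8.32 CPM in controls (SD, n = 3).

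Genes of secreted plasma-type proteins were among those named for small p-values or large differences in this direction, and none was called. Hp, haptoglobin, which binds free haemoglobin, was at 1960, 2630 and 1870 CPM in asthma and 924, 1260 and 989 CPM with BSYQF (control 1010 ± 198, SD, n = 3). Its groups stood well apart with little spread, and the log2 difference of -1.03 ± 0.22 had an edgeR adjusted p of 0.267. Lrg1, a secreted leucine-rich glycoprotein, and the copper carrier Cp differed by -1.22 ± 0.29 and -0.75 ± 0.19. Hpx, hemopexin, and Saa1, serum amyloid A, differed by -1.92 ± 0.49 and -2.41 ± 0.65, at up to 8.34 and 23.4 CPM in asthma. Freedom from overlap was a condition of naming these genes, which were not a fixed list, and Hp also belongs to the secretory airway list. The alarmin gene Il33 of alveolar epithelium was at 380, 328 and 169 CPM against at most 149 CPM in the BSYQF libraries, without overlap (-1.18 ± 0.29, edgeR adjusted p = 0.346). The monocyte chemokines Ccl2, Ccl7 and Ccl12 differed by -2.18 ± 0.60, -2.57 ± 0.70 and -1.48 ± 0.45, each with overlap between the groups. They were the only lower genes at an unadjusted p under 0.05 among 16 inflammatory cytokine and chemokine genes tested (all genes 4.15%). In that list 1 gene, Tnf, was higher (1.42 ± 0.59; all genes 3.79%), 8 of 16 had a positive difference and the median was -0.05. Other genes without overlap were the prostaglandin synthase Ptgs1 (-0.83 ± 0.20), the oxysterol hydroxylase Cyp7b1 (-1.48 ± 0.34), the cyclin Ccne2 (-1.10 ± 0.24) and the CTP synthase Ctps (-0.99 ± 0.24).

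Medians were also negative for genes encoded by the mitochondrial genome and for those of endoplasmic reticulum stress, but most of these genes overlapped between groups. Of 12 tested in each list, 2 mitochondrial genes and 1 endoplasmic reticulum gene lay wholly below asthma (all genes 4.76%). All 12 mitochondrial genes had a negative difference, with a median of -0.71, but only 2 had an unadjusted p under 0.05 (all genes 4.15% lower). The median was -0.14 without asthma replicate 2, -1.20 without BSYQF replicate 1 and -0.45 without BSYQF replicate 3. Of 12 genes of endoplasmic reticulum stress, 2 were lower at an unadjusted p under 0.05 (all genes 4.15%): Pdia4 (-0.64 ± 0.27) and Hspa5 (-0.58 ± 0.25), both folding factors. The list median of -0.42 was -0.64 without asthma replicate 3 and -0.65 without BSYQF replicate 1.

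T cell genes had higher levels with BSYQF, although 0 were called. All 14 T cell genes tested had a positive difference, 7 were higher at an unadjusted p under 0.05 (all genes 3.79%), 9 lay wholly above asthma (all genes 4.99%) and the median was 0.67. Genes of NK and cytotoxic cells did not share this, with 1 of 11 positive and a median of -0.25. Cd4, the helper T cell co-receptor, was at 17.4, 20.8 and 14.7 CPM in asthma and 29.2, 27.1 and 42.3 CPM with BSYQF (0.90 ± 0.21, edgeR adjusted p = 0.315). Controls had 17.4 ± 2.10 CPM (SD, n = 3), a level inside the asthma range. Cd3e of the T cell receptor and the factor Tcf7 differed by 1.14 ± 0.34 and 0.90 ± 0.27, also without overlap, and BSYQF replicate 3 was the highest library for both. Gbp5, a guanylate-binding protein induced by interferon, was even within groups, at 14.9, 17.3 and 17.5 CPM against 28.0, 29.8 and 35.8 CPM (0.91 ± 0.17, edgeR adjusted p = 0.209), with controls at 18.0 ± 1.82 CPM (SD, n = 3). Against control, Gbp5 rose with BSYQF (0.80 ± 0.17, edgeR adjusted p = 0.0386).

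All 11 B cell genes had a positive difference, 4 with an unadjusted p under 0.05 (all genes 3.79% higher), and the median was 0.57. Only 1 of the 11 lay wholly above asthma, where 4.99% of all genes did, so most B cell genes overlapped between the groups. Complement receptor 2 (Cr2), the surface antigen Ms4a1 and the follicle-homing receptor Cxcr5 differed by 1.40 ± 0.40, 0.90 ± 0.29 and 0.95 ± 0.33. Of 7 germinal centre genes, 4 lay wholly above asthma (all genes 4.99%; among them Rgs13, Gcsam and Mybl1), and the median of 0.91 became 0.52 without BSYQF replicate 1. Gcsam, a signalling protein of germinal centre B cells, was at 4.13, 4.71 and 4.17 CPM against 10.9, 7.67 and 5.93 CPM (0.91 ± 0.30, edgeR adjusted p = 0.571), beside 1.54 ± 0.304 CPM in controls (SD, n = 3). Glycam1, a sulphated ligand made by the high endothelial venules of lymphoid tissue, was at 0, 0.672 and 2.87 CPM in asthma and 29.6, 66.3 and 208 CPM with BSYQF (6.32 ± 1.45, edgeR adjusted p = 0.346). Its controls were at 10.4, 0.351 and 0.745 CPM. Jchain, the joining chain of secreted antibody, was high in both groups and overlapped (2570, 3420 and 2590 CPM against 3590, 3630 and 3380 CPM; 0.30 ± 0.46).

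The median of the neutrophil list depended on BSYQF replicate 3. Of 11 neutrophil genes tested, 2 were higher and 1 lower at an unadjusted p under 0.05 (all genes 3.79% and 4.15%). The lower gene was Lcn2, at 1780, 1370 and 710 CPM in asthma and 451, 893 and 664 CPM with BSYQF (-0.94 ± 0.36, edgeR adjusted p = 0.6). Of these 11 genes, 0 were free of overlap (all genes 9.75%). The median of 1.08 became 0.13 without BSYQF replicate 3. Ngp and Camp, proteins of maturing neutrophils, were at 286 and 67.7 CPM in BSYQF replicate 3. They were at 4.97 and 1.88 CPM in BSYQF replicate 1 and 11.6 and 4.53 CPM in BSYQF replicate 2. The asthma libraries had 6.06 to 10 CPM of Ngp and 3.09 to 5.11 CPM of Camp. Without BSYQF replicate 3 the log2 difference of Camp went from 2.72 to -0.23. S100a8, the calprotectin subunit of mature neutrophils, was at 157, 74.8 and 103 CPM in asthma and at 34.7, 285 and 607 CPM with BSYQF, so BSYQF replicates 1 and 3 were the lowest and the highest of the 6.

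Immediate early genes, which respond within minutes to stimulation, were higher in BSYQF replicates 1 and 2. Egr1 was at 323 and 378 CPM in those libraries and 80.7 CPM in BSYQF replicate 3, within the asthma range of 73.6 to 130 CPM. Ier2 and Fos had the same layout, at 242, 249 and 103 CPM and at 264, 181 and 64.3 CPM in BSYQF replicates 1, 2 and 3. Egr3 lay wholly above asthma, at 5.38, 2.35 and 2.15 CPM against 11.3, 23.5 and 10.6 CPM (2.20 ± 0.41, edgeR adjusted p = 0.209). All 12 genes of this list had a positive difference, 5 with an unadjusted p under 0.05 (all genes 3.79% higher). The median was 0.69, and 0.44 without BSYQF replicate 2.

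**Figure D4:**
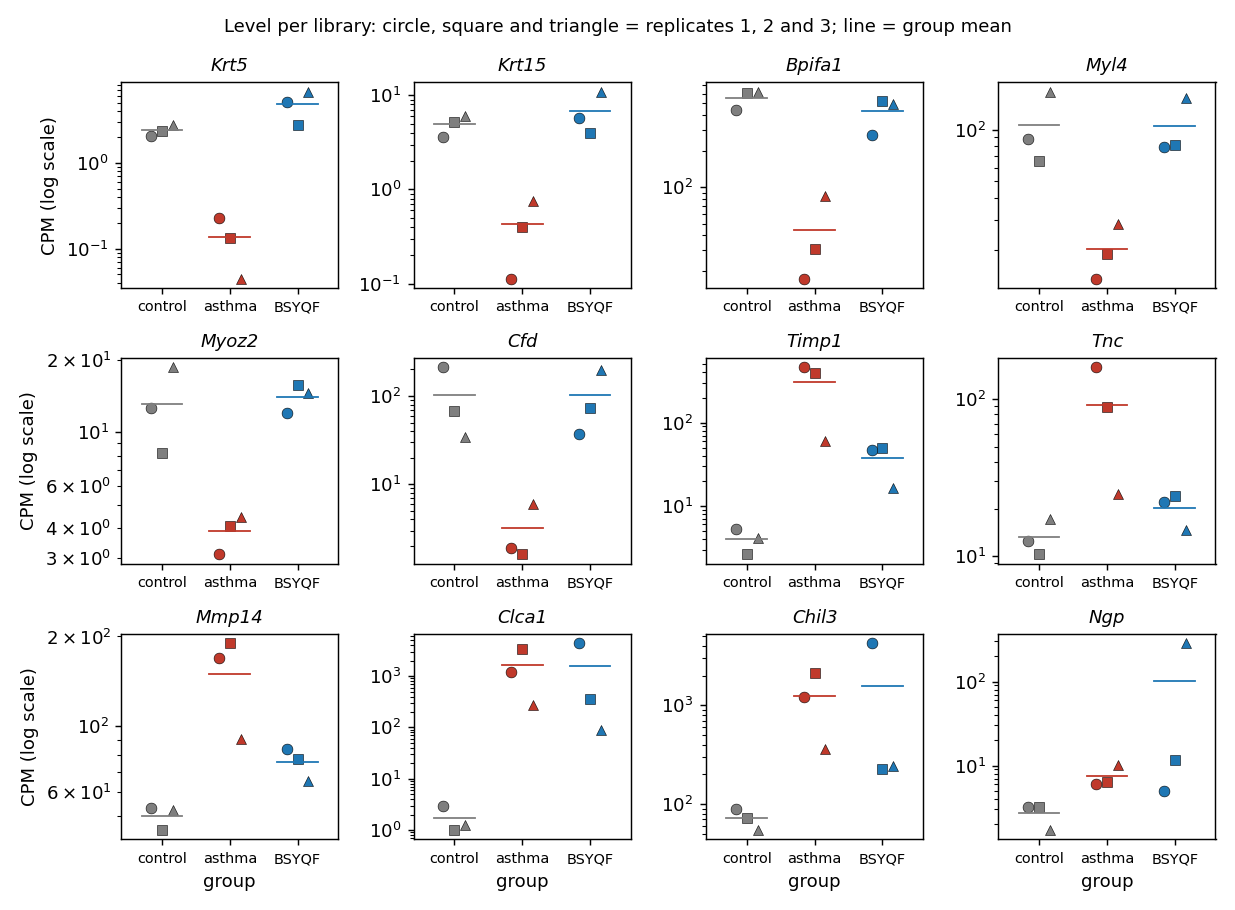
CPM on a log scale for 12 genes in each of the 9 libraries, with shape for the replicate and a line for the group mean. Krt5, Krt15, Bpifa1, Myl4, Myoz2 and Cfd have all BSYQF points above the asthma points, while Clca1 and Chil3 span the same range in both groups.

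Some of the genes described above also differed between asthma and control, while others did not pass that test (Cd4 at 0.02 ± 0.21 and Gbp5 at -0.12 ± 0.17). Krt5 fell by 4.13 ± 0.60 on the log2 scale in asthma against control (edgeR adjusted p = 0.00715), Bpifa1 by 3.65 ± 0.53 (0.00825) and Myl4 by 2.38 ± 0.41 (0.0108). Timp1 rose by 6.23 ± 0.82 (edgeR adjusted p = 0.00715), Tnc by 2.77 ± 0.56 (0.0198) and Hp by 1.08 ± 0.22 (0.0184). The differences of BSYQF from control were 1.03 ± 0.44 for Krt5, -0.38 ± 0.48 for Bpifa1, -0.03 ± 0.38 for Myl4 and 0.06 ± 0.22 for Hp, with edgeR adjusted p-values of 0.293, 0.729, 0.979 and 0.918. Those of Timp1 and Tnc were 3.21 ± 0.73 and 0.61 ± 0.54 (edgeR adjusted p = 0.0673 and 0.608). Some genes lower than in asthma were still called above control, such as Lrg1 (1.63 ± 0.29, edgeR adjusted p = 0.0231) and Saa1 (4.74 ± 0.96, 0.0338). Others were not, such as Sod2 (0.12 ± 0.16, edgeR adjusted p = 0.751) and Mmp14 (0.59 ± 0.24, 0.258). These comparisons use the same asthma, BSYQF or control libraries as the main one, so their values are not separate evidence, and a p that misses the threshold does not show equal levels.

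Within groups, libraries spread more in asthma and BSYQF than in control. The median SD of log2 CPM over the tested genes was 0.186 in control, 0.284 in asthma and 0.269 in BSYQF. An SD of at least 1, or 2-fold on the linear scale, was reached by 280 genes (1.90%) in control, 759 (5.15%) in asthma and 649 (4.40%) in BSYQF. The asthma and BSYQF groups were alike on this measure, with the larger SD in asthma for 52.4% of genes. Among the 759 widely spread genes of the asthma group, replicate 3 was the library farthest from the other asthma libraries for 350 (46.1%), replicate 2 for 279 and replicate 1 for 130. Among the 649 of the BSYQF group, replicate 1 was farthest for 395 (60.9%), lower than the others for 258 and higher for 137.

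**Figure D5:**
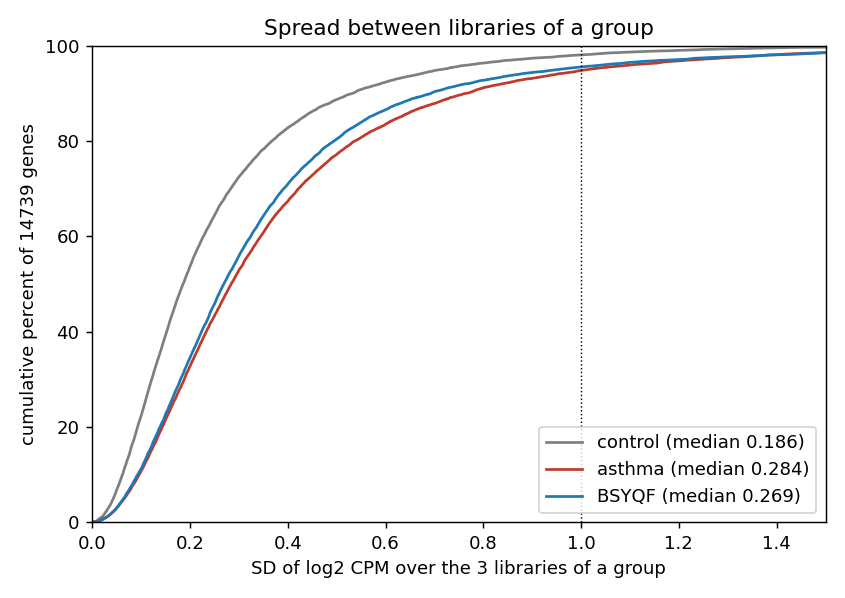
Cumulative percent of the 14739 genes by the SD of log2 CPM over the 3 libraries of a group; the dotted line marks an SD of 1. The control curve rises first (median 0.186), and those of asthma (0.284) and BSYQF (0.269) lie close together.

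Genes typical of the allergic airway were among those that spread most. Clca1, a secreted goblet cell product, was at 1200, 3400 and 275 CPM in asthma and 4380, 351 and 88.7 CPM with BSYQF, so BSYQF replicates 1 and 3 were the highest and the lowest of the 6 libraries. The difference was -0.02 ± 1.25 on the log2 scale, and control libraries had 0.995 to 2.92 CPM. Muc5ac, the inducible gel-forming mucin, was at 21.7, 38.5 and 12.2 CPM against 71.6, 13.4 and 8.01 CPM (0.36 ± 0.73), and Muc5b, the other gel-forming mucin, differed by -0.50 ± 0.51. For Muc5ac the levels put BSYQF replicate 1 beside asthma replicates 1 and 2 and asthma replicate 3 beside BSYQF replicates 2 and 3. Mean levels of 14 goblet genes followed that division, at 3.48, 4.24 and 2.17 log2 units above control in asthma and 4.57, 2.49 and 2.03 with BSYQF. None of these 14 genes had an unadjusted p under 0.05 (all genes 7.94%). The list median of -0.01 ran from -1.12 without BSYQF replicate 1 to 0.49 without asthma replicate 2. The libraries highest on this list, asthma replicates 1 and 2 and BSYQF replicate 1, also had the highest shares of mitochondrial counts, and the part of that share in the spread was not tested.

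Macrophage and type 2 effector genes had the same layout. Chil3, the chitinase-like protein Ym1, was at 1220, 2130 and 363 CPM against 4240, 227 and 240 CPM (0.34 ± 1.07, and -2.40 without BSYQF replicate 1). Retnla, the resistin-like protein FIZZ1, was at 3880, 6070 and 2170 CPM against 4700, 1070 and 406 CPM (-0.97 ± 0.87). Arg1, arginase, and the macrophage elastase Mmp12 differed by -1.85 ± 0.92 and -0.36 ± 1.20. Of the 15 genes on this list, 1 was higher and 1 lower at an unadjusted p under 0.05 (all genes 3.79% and 4.15%). The median of -0.36 became -1.60 without BSYQF replicate 1 and -0.20 without asthma replicate 2. Of the genes averaging 5 CPM or more, the chitinase-like gene Chil4 had the largest spread within BSYQF, at 159, 7.96 and 1.25 CPM, followed by the squamous envelope gene Sprr2a3 at 64.7, 0.581 and 5.72 CPM. The neuropeptide gene Npy, at 49.2, 1.39 and 0.885 CPM, was also highest in BSYQF replicate 1. Within asthma, Sprr2a3 (19.3, 51.6 and 1.30 CPM) and Mmp12 (992, 1220 and 77.5 CPM) spread most, and asthma replicate 3 was the lowest library for both.

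The authors' deposited table of BSYQF against asthma lists 424 genes, 325 higher and 99 lower. Of the genes in the authors' deposited table, 77 have an adjusted p under 0.05, 67 higher and 10 lower. The listed genes all differ by at least 2-fold, a limit that was not set on the calls here, so the counts are not directly comparable. From the same counts, DESeq2 here called 83 genes with the 6 libraries and 122 with all 9, and edgeR called 1.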

How the data were processed

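Lung RNA libraries were made from 3 µg of total RNA with the NEBNext Ultra kit, per the labels' protocols. Tools named in the submitters' processing notes are STAR, HTSeq, cutadapt, FastQC and DESeq2, and the build is mm10; for versions, strand setting and annotation, nothing is given in the sources used here. As deposited by the authors, the table holds raw counts for 21983 genes. They also deposited log2 fold changes and p-values per comparison, per the file headers, used here only to count listed genes: the listed genes reach a p of at most 0.05 and a 2-fold difference. A further 36 columns of values per library in those tables were not used.

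Counts were filtered (filterByExpr), scaled (TMM) and fitted with edgeR 4.0.16 (R 4.3.3; quasi-likelihood, robust) in 1 model of 3 groups and 9 libraries, without a replicate block; p-values were adjusted (Benjamini-Hochberg) over 14739 genes and called under 0.05. The script was tested on simulated data. CPM uses TMM-scaled totals, and log2 CPM a prior count of 2; 3 counts was the floor. SE is the log2 fold change over the square root of F. Alternatives were DESeq2 1.42.0, limma 3.58.1 voom, other scaling and filters, a replicate block and each library left out; DESeq2 on 6 libraries was added after seeing the data. Members, 52 gene lists and rules were chosen with earlier results of these data known. Genes were named by a rule: those called, the 15 smallest p-values each way without overlap (mean of at least 1 CPM), the 10 largest differences each way, up to 4 per list, the 10 widest spreads per group (mean of at least 5 CPM), and fixed asthma genes; the text adds list members chosen after their values were seen. Families with close copies (Clca, Saa, Chil, Sprr2) and genes overlapping on opposite strands are uncertain. Coordinates are GENCODE vM21; promoters are RefSeq. Some results are not reported here.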

Additional observations from a re-analysis of the deposited data

How the results depend on the processing

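The number of genes called (1) was 1 with DESeq2's size factors, no filter on low counts or edgeR's newer quasi-likelihood method, 15 with a replicate block (all higher), 122 with DESeq2, 83 with DESeq2 on 6 libraries (72 higher, 11 lower), 0 with limma voom and 0 with edgeR on the 6 libraries, and 0 to 114 with 1 library left out. Genes with an unadjusted p under 0.05 (1171) numbered 547 to 3035, and genes without overlap (1437) 2066 to 5045, with 1 library left out; fewer libraries make non-overlap easier. The fit with the replicate block pairs libraries by number only: deviations of same-numbered asthma and BSYQF libraries correlated at 0.11, -0.12 and 0.34, and asthma replicate 2 correlated best with BSYQF replicate 1 (0.37), so the numbers were not taken as pairs. Over genes of at least 10 CPM the median SD was 0.151, 0.234 and 0.227 in control, asthma and BSYQF. With single libraries left out, list medians ranged over 0.01 to 0.60 (club and secretory), 0.22 to 0.68 (skeletal muscle), 3.44 to 5.62 (adipocyte), 0.52 to 1.04 (germinal centre), -1.60 to -0.20 (type 2 effector) and -1.12 to 0.49 (mucus).

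Of 109 genes whose log2 differences the text may draw on, 101 kept their sign in all 17 alternative fits. Over those 17 fits, the log2 difference ran from -0.23 to 3.29 for Camp, -2.40 to 0.98 for Chil3, -2.88 to 1.12 for Clca1, -3.23 to 0.17 for Mmp12, -1.16 to 0.87 for Muc5ac, -1.09 to 0.10 for Muc5b, -0.34 to 0.15 for Tgfb1 and -0.39 to 0.35 for Trp63. Camp turned without BSYQF replicate 3; Chil3, Clca1, Mmp12 and Muc5ac had their lowest value without BSYQF replicate 1. The replicate block turned Chil3 (-0.44), Muc5ac (-0.10) and Trp63 (-0.06), and limma voom Chil3 (-0.70) and Muc5ac (-0.11). DESeq2 newly called 48 of the 109, the fit without asthma replicate 3 called 32 and the replicate block 10. Over all genes these fits called 122 (0.692%), 114 (0.763%) and 15. Many of the 109 were named for small p-values or large differences in these data, so these counts and the kept signs are not separate evidence. The cause of the shifts between fits was not tested. Genes with few counts in asthma, such as Krt5, Slc5a8 and Lep, are limited by depth.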

Other observations

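Among other gene groups, 0 genes were called. Plasma cell genes overlapped, with 0 of 10 at an unadjusted p under 0.05 (all genes 7.94%) and a median of -0.02. Their mean level was 1.74 to 2.79 log2 units above control in all 6 asthma and BSYQF libraries. Proliferation genes had 0 of 15 at an unadjusted p under 0.05 and a median of 0.07; asthma replicate 3 was the lowest of the 6 at 0.95 log2 units above control. Alveolar type 2 cell genes had 0 of 12 and a median of 0.02. Of 8 genes of the eosinophil list, 6 were tested and 1 was higher at an unadjusted p under 0.05 (all genes 3.79%). A positive difference was found for 3 of the 6, and the median was -0.17. Of 16 xenobiotic metabolism genes tested, 2 were higher at an unadjusted p under 0.05 (all genes 3.79%) and 14 had a positive difference. Their median of 0.28 became 0.77 without asthma replicate 3. The median was 0.46 over 5 lymphatic endothelial genes and -0.45 over 13 genes of mast cells and basophils.

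Further genes with 0 counts in the asthma libraries, named by the rule for the largest differences, were Serpinb11, a serpin (0 counts against 15, 14 and 42, at least 24.5-fold higher), Ebf2, a factor of brown fat precursors (4, 21 and 39, at least 22.1-fold higher), and Tmem179 (6, 3 and 73, at least 28.3-fold higher, resting on BSYQF replicate 3). The floor is 3 counts over the asthma group. Ebf2 and Tmem179 had counts in every control library, while Serpinb11 had at most 2.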
